A study of Homo sapiens with 688 samples.

Results

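Histone deacetylase (HDAC) inhibitors made up 6 of the compounds profiled in U87 cells: romidepsin, belinostat, vorinostat and panobinostat in the plate set labelled U87PS1, and resminostat and pracinostat in the set labelled U87PS4. They were found by matching the drug label of each well against a list of HDAC inhibitor names, which gave 12 wells of 384 U87 wells and of 688 samples in the series. U87 is a human glioblastoma cell line, and the wells were profiled after 24 h with PLATE-Seq, in which poly(A) RNA of each well is reverse transcribed with a barcoded oligo(dT) primer and all wells of a plate are then pooled into a single 3′-end library. Each set consisted of duplicate plates, A and B. Each compound had 1 well on each of them at the same well position, so well position and compound cannot be told apart. The authors pooled lysate from separate culture wells into each profiled well. Whether A and B came from separate culture plates is not stated.

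The authors set the doses by growth inhibition, and doses differed between compounds. They were 0.697 µM romidepsin, 3.5 µM belinostat, 1.4 µM vorinostat, 0.012 µM panobinostat, 4.437 µM resminostat and 0.42 µM pracinostat. Because of this the compounds are given side by side, each against its own controls, and were not tested against each other. The controls of a set were 4 DMSO wells and 4 untreated wells, 2 of each on either plate, and the other compound wells were 176 wells of 88 compounds in each set. PCI-24781 (0.339 µM) and rocilinostat (1.541 µM), both HDAC inhibitors, stood on the U87PS4 plates, but their labels did not match the list of names. They were kept out of the members as well as out of the other compounds. All wells held the same cell line, a single line without a genetic variable. Nothing in the labels tells separate cultures from wells of the same culture, so p-values measure the spread between wells. In tests against the other compounds, that spread includes differences between compounds, since all their wells formed 1 group.

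HDACs remove acetyl groups from lysines of histone tails and of other proteins, and the classical enzymes fall into class I (HDAC1, HDAC2, HDAC3 and HDAC8), class IIa, class IIb, to which HDAC6 belongs, and class IV. Romidepsin is a bicyclic depsipeptide that acts mainly on class I enzymes, whereas belinostat, vorinostat, panobinostat, resminostat and pracinostat are hydroxamic acids that bind the zinc ion of the active site and act on more of the classes. Inhibition raises histone acetylation, and such compounds are known to arrest the cell cycle in many cell lines. Outside neurons, HDAC-containing corepressors are known to hold neuronal genes silent through the factor REST.

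The belinostat wells were the shallowest among the members, with 184684 and 207048 counts, and the romidepsin wells held 267876 and 364834 counts. The remaining member wells held 489471 to 977334 counts and the DMSO wells 445250 to 799631. In bulk wells, fewer cells and less RNA per cell cannot be told apart. The plates differed from each other in a few very abundant genes, with TUBA1B taking a median of 3.78% of counts on U87PS1A and 0.736% on U87PS1B, and plate was therefore a term of every fit. Levels are given as CPM, the count scaled by the size of the library with edgeR's TMM factor, and a gene was called when the Benjamini-Hochberg adjusted p of edgeR's quasi-likelihood test was below 0.05. VIM, an intermediate filament gene that U87 cells hold at high level, was read as a marker of the line. It lay between 1537 and 3743 CPM in the inhibitor and DMSO wells of U87PS1 and between 993 and 2446 CPM in those of U87PS4. The glial genes GFAP and OLIG2 were at or near 0. In the inhibitor wells of U87PS1, summed epithelial markers held 8.72 to 47.5 CPM and summed prostate line markers 39.4 to 187 CPM. These levels alone do not identify the line.

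The extent of the response differed widely between the inhibitors. Of 8358 genes tested in U87PS1, romidepsin called 1169 higher (14.0%) and 1449 lower (17.3%) than DMSO, 31.3% in all. Belinostat called 765 higher (9.15%) and 936 lower (11.2%), 20.4% in all. Vorinostat called 262 higher (3.13%) and 202 lower (2.42%), 5.55% in all, and panobinostat 145 higher (1.73%) and 87 lower (1.04%), 2.78% in all. Every compound's count rests on few wells, those of resminostat and pracinostat below included. Each count fell when a single well or the plate term was left out, as for vorinostat and panobinostat. Without its plate B well vorinostat called 100 genes, without its plate A well panobinostat called 64, and without plate as a term they called 5 and 6. With untreated wells as the reference the vorinostat split was 235 higher and 288 lower. Of 8613 genes tested in U87PS4, resminostat called 635 higher (7.37%) and 544 lower (6.32%), 13.7% in all, and pracinostat 311 higher (3.61%) and 217 lower (2.52%), 6.13% in all. Untreated wells, compared with DMSO in the same way, called 33 higher (0.395%) and 20 lower (0.239%) in U87PS1, 0.634% in all, and 51 higher (0.592%) and 33 lower (0.383%) in U87PS4, 0.975% in all. The mean of the 4 members of U87PS1 called 732 higher (8.76%) and 1233 lower (14.8%), 23.5% in all, and the mean of both members of U87PS4 641 higher (7.44%) and 660 lower (7.66%), 15.1% in all. The compounds with the most calls in U87PS1, romidepsin and belinostat, were also the shallowest wells, and the part of depth in these counts was not tested. With both left out, the mean of vorinostat and panobinostat called 513 genes.

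**Figure D1:**
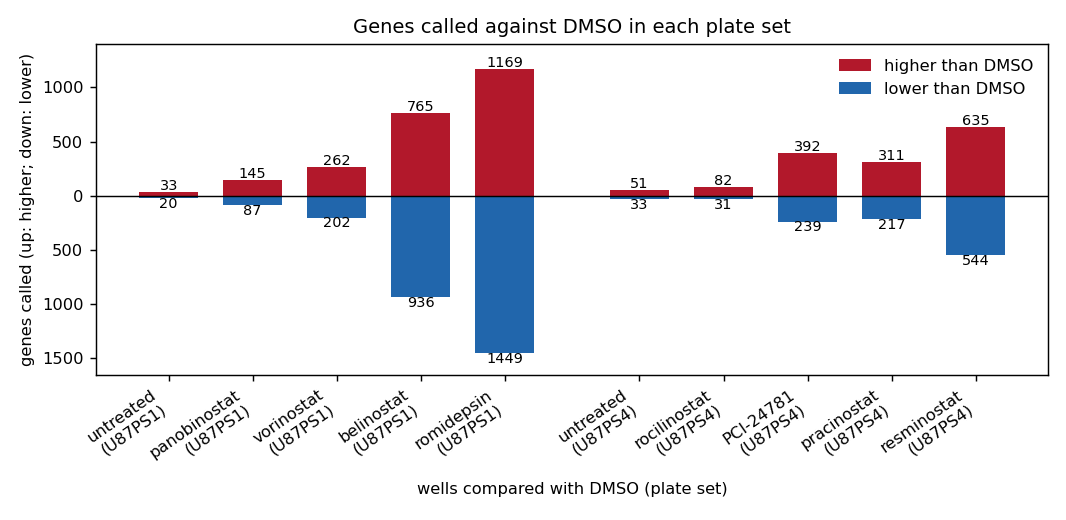
Number of genes called higher (red bars, upward) and lower (blue bars, downward) than DMSO by edgeR at an adjusted p below 0.05, for each HDAC inhibitor, for PCI-24781 and rocilinostat and for the untreated wells. Romidepsin has the longest bars, 1169 and 1449 genes, and the untreated wells the shortest, 33 and 20 in U87PS1.

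The sets have separate wells, controls and compounds, which allows their mean responses to be laid side by side. Of 7871 genes tested in both, 301 were higher in both sets (3.82%) and 401 lower in both (5.09%), and 16 were called in opposite directions. The 301 genes were 42.9% of those higher in U87PS1 and 48.5% of those higher in U87PS4. The 401 genes were 33.2% of those lower in U87PS1 and 62.6% of those lower in U87PS4. Across all 7871 genes the log2 fold changes of the sets had a Pearson correlation of 0.574, given as a description since genes are not independent replicates.

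**Figure D2:**
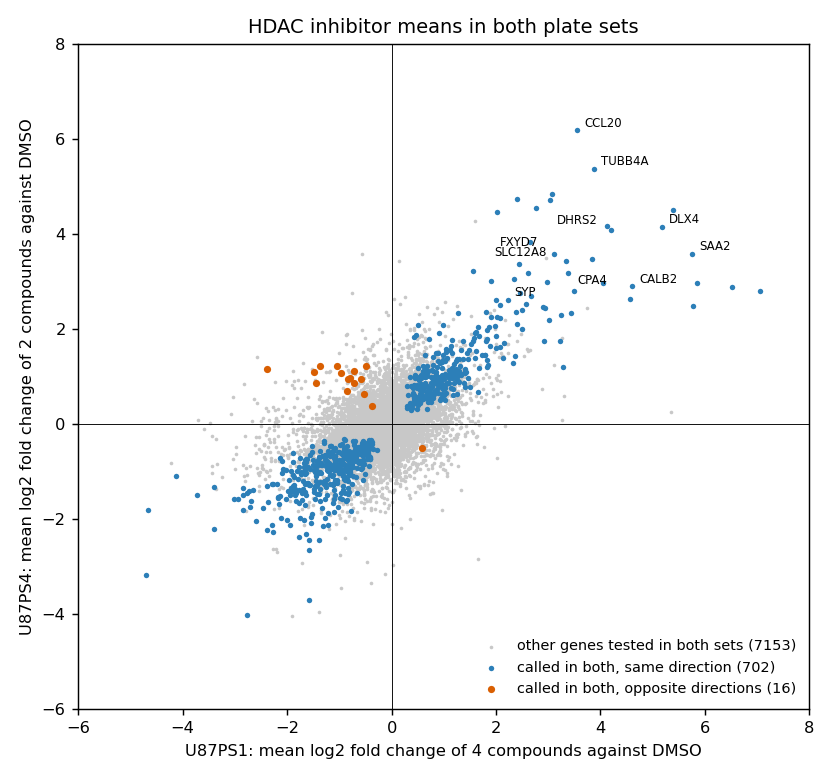
Log2 fold change against DMSO of the mean of the 4 HDAC inhibitors of U87PS1 (x axis) and of both inhibitors of U87PS4 (y axis), 1 point per gene tested in both sets. Blue points are the 702 genes called in both sets in the same direction, orange points the 16 called in opposite directions, and labels mark the 10 named genes that rose, all at the upper right.

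Among genes higher in both sets whose mean over the inhibitor and DMSO wells was at least 20 CPM in each set, those with the largest rise were DLX4, DHRS2, TUBB4A, SAA2, CCL20, SLC12A8, CPA4, FXYD7, SYP and CALB2. DHRS2, a mitochondrial and nuclear short-chain dehydrogenase, held 615 and 960 CPM in the romidepsin wells and 246 and 249 CPM in the belinostat wells. Panobinostat wells held 36.1 and 52.1 CPM of DHRS2 and vorinostat wells 26.3 and 48.5 CPM, against 0, 2.18, 10.6 and 13.3 CPM in the DMSO wells. Every inhibitor well of U87PS1 was thus above every DMSO well. In U87PS4 pracinostat gave 89.2 and 48 CPM of DHRS2 and resminostat 87.2 and 53.1 CPM, against 0 to 8.28 CPM in DMSO. The rise over DMSO was 4.20 ± 0.30 in U87PS1 (log2 ± SE, adjusted p = 3.3e-20, edgeR) and 4.09 ± 0.54 in U87PS4 (adjusted p = 1.1e-06, edgeR). No other compound reached any inhibitor in mean DHRS2 level, the highest being cytarabine at 18.7 CPM in U87PS1 and volasertib at 30.2 CPM in U87PS4.

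FXYD7, a small regulator of the sodium-potassium pump found mainly in brain, was high in all 12 wells and varied little with the compound. It held 142 and 58 CPM under romidepsin, 195 and 240 under belinostat, 194 and 103 under panobinostat and 173 and 113 under vorinostat, against 10.3 to 21.3 CPM in DMSO. In U87PS4 it held 146 and 307 CPM under pracinostat and 176 and 362 under resminostat, against 12 to 36 CPM in DMSO. Here, unlike for DHRS2, panobinostat and vorinostat lay among the other inhibitors, with log2 rises of 3.07 ± 0.32 and 3.06 ± 0.32 beside 2.49 ± 0.37 for romidepsin. The highest other compounds reached 26.2 CPM in U87PS1 and 47.6 CPM in U87PS4. These genes were picked on the same wells, so their separation from the other compounds is a description.

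CPA4, a carboxypeptidase first found as a gene induced by HDAC inhibition, held 603 and 592 CPM in romidepsin wells, 303 and 318 in belinostat wells, 64.5 and 41.2 in panobinostat wells and 41.3 and 60.1 in vorinostat wells, against 2.37 to 22.6 CPM in DMSO. In U87PS4 it held 1810 and 1314 CPM in resminostat wells and 525 and 533 in pracinostat wells, against 85.8 to 113 CPM in DMSO. No inhibitor well overlapped the DMSO wells of its set. The log2 rises were 3.38 ± 0.26 (adjusted p = 4e-18, edgeR) and 3.17 ± 0.14 (adjusted p = 1.3e-20, edgeR). SLC12A8, a transporter of the cation-chloride family, rose by 3.35 ± 0.36 and 3.42 ± 0.28, and every inhibitor of U87PS1 exceeded the highest other compound there, at 21.7 CPM. The synaptic vesicle protein gene SYP rose by 2.98 ± 0.54 and 2.99 ± 0.47, within a narrow range of 2.77 to 3.21 over the 6 compounds. CALB2, the calcium-binding protein calretinin, rose by 4.61 ± 0.57 and 2.89 ± 0.45.

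Several of these genes had next to no reads in DMSO, so that their fitted values depend on the prior count and a ratio of counts is given instead, with a 95% interval that covers counting error only. DLX4, a homeobox gene, had 1 count over the 4 DMSO wells of U87PS1, and the ratio was 203 (34.3 to 8249) for belinostat and 113 (19.0 to 4599) for romidepsin. For vorinostat the ratio was 11.4 (1.52 to 504), and its DLX4 wells at 5.64 and 4.85 CPM did not pass the test (adjusted p = 0.13, edgeR). SAA2, an acute-phase serum amyloid gene, had 3 counts in DMSO and ratios of 1801 (615 to 8740) for romidepsin and 416 (141 to 2032) for belinostat, but 2.74 (0.533 to 17.6) for panobinostat. The brain tubulin gene TUBB4A rose in every inhibitor except vorinostat, where 20.7 and 6.79 CPM stood against 0 to 10.9 CPM in DMSO (adjusted p = 0.12, edgeR). SAA2 and TUBB4A have near-identical relatives and only uniquely mapped reads were counted, which makes their levels uncertain. The chemokine gene CCL20 rose in all 6 compounds, from 2.00 on the log2 scale in vorinostat to 5.28 in belinostat within U87PS1.

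Among the genes with the largest fall in both sets were NDC80, SAPCD2, ZNF804A, DNAJC9, CDCA8, TIMELESS, SYDE1, PHF19 and CCNB1. CCNB1, the mitotic cyclin B1, held 23.7 and 31.4 CPM in romidepsin wells, 28.6 and 30.5 in belinostat wells, 74 and 120 in panobinostat wells and 75.2 and 127 in vorinostat wells, against 152 to 226 CPM in DMSO. In U87PS4 it held 72.3 and 58.7 CPM in pracinostat wells and 56.1 and 41.8 in resminostat wells, against 137 to 203 CPM. All 12 wells lay below the DMSO wells of their set, and CCNB1 fell by 1.72 ± 0.19 (adjusted p = 5.1e-12, edgeR) and by 1.61 ± 0.19 (adjusted p = 2.9e-08, edgeR) on the log2 scale. NDC80, a kinetochore subunit, fell by 2.27 in both sets. CDCA8, the borealin subunit of the chromosomal passenger complex, fell by 2.17 and 1.68. TIMELESS, which acts at replication forks, fell by 1.64 and 2.31, and PHF19, a Polycomb-associated protein, by 1.83 and 1.62.

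**Figure D3:**
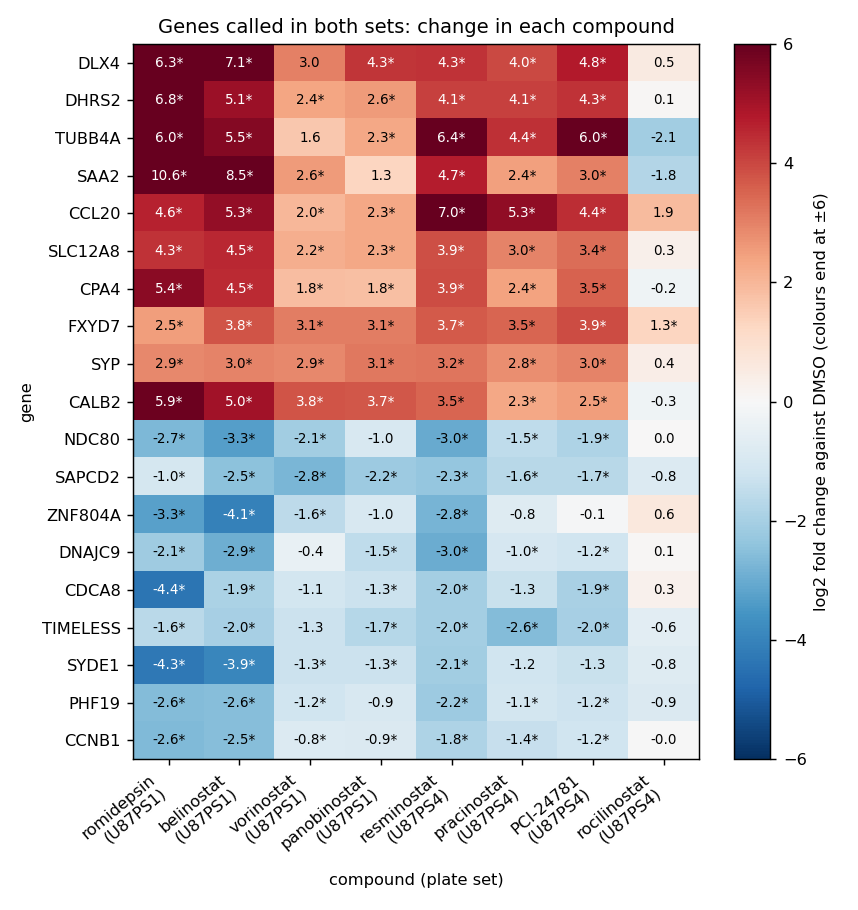
Log2 fold change against DMSO of 19 named genes (y axis) in each HDAC inhibitor and in PCI-24781 and rocilinostat (x axis), with red for higher, blue for lower and an asterisk for an adjusted p below 0.05. FXYD7 and SYP are of similar colour in all 6 inhibitors. Colours end at 6, so SAA2 has the same darkest red in romidepsin and belinostat. In the rocilinostat column only FXYD7 carries an asterisk.

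Upstream sequence is shown for a pair of genes that rose and a pair that fell in all or most compounds, because all of them moved in most or all of the 6 compounds and start sites differ in the elements they carry. Each run is the 250 bases before the transcription start from RefSeq (GRCh38.p14), 5′ to 3′ on the strand of the gene, with capitals marking on either strand the CCAAT box, the GC box spelled as GGGCGG, the AP-1 type element spelled as TGANTCA, and the TATA box spelled as TATAAA. The DHRS2 run is chr14:23629865-23630114, the CPA4 run chr7:130292911-130293160, the CCNB1 run chr5:69166900-69167149 and the CDCA8 run chr1:37692266-37692515, all on the plus strand.
DHRS2: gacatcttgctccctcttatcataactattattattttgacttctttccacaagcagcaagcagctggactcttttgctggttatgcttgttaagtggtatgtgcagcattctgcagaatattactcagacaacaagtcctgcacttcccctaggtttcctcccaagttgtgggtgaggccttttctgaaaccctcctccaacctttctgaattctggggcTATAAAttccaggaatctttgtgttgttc
CPA4: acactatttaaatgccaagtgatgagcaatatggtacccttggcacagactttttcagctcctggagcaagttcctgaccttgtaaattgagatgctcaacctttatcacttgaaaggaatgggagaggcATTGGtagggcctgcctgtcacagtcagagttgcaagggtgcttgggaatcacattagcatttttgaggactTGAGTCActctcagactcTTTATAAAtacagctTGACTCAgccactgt
CCNB1: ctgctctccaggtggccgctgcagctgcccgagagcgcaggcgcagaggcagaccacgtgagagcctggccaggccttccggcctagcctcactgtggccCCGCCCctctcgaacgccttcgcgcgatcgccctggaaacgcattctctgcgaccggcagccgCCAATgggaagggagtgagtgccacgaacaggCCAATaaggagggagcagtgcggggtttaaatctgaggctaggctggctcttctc
CDCA8: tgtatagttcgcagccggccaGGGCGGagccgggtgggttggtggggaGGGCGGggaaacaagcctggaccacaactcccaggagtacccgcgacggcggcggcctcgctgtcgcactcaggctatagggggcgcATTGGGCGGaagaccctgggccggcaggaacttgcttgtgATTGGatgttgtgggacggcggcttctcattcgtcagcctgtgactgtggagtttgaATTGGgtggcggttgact

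The DHRS2 run holds 1 TATAAA and none of the other motifs, and the CPA4 run holds 2 AP-1 type elements, 1 CCAAT box and a TATA box that reads as such on both strands and so counts as 2. The CCNB1 run holds 2 CCAAT boxes and 1 GC box, and the CDCA8 run 3 of each, where a CCAAT box and a GC box overlap. The TATA box was present before 12.8% of the genes higher in both sets (235 of 301 had an entry), 3.68% of those lower in both (326 of 401), 4.85% of all genes tested in both (6468 of 7871) and 11.1% of 27305 promoters. The CCAAT box was present before 39.6%, 38.7%, 36.1% and 33.0% of the same groups. The GC box was present before 71.1%, 72.4%, 69.4% and 42.3%, and the AP-1 type element before 6.81%, 5.21%, 3.6% and 6.6%. These shares describe letters in the window and no binding was measured. DLX4, SAA2, FXYD7 and CALB2 had no entry.

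A narrower group moved in every inhibitor taken singly. Of the genes tested in both sets, 42 (0.534%) were called higher and 13 (0.165%) lower than DMSO by all 6 compounds. Besides FXYD7, DHRS2, CPA4, SYP, CCL20, SLC12A8 and CALB2, the 42 included the metallothionein gene MT1G (1.49 to 5.68 over the 6 compounds on the log2 scale), MAP2 (1.57 to 3.21), the transglutaminase gene TGM2 (0.73 to 2.51), the heparan sulfate proteoglycan gene SDC4 (0.65 to 3.46), SAT1, which acetylates polyamines (0.83 to 3.10), the aldose reductase gene AKR1B1 (0.90 to 2.08), the complement gene C3 (0.81 to 2.94) and SERPINB2, a plasminogen activator inhibitor (1.23 to 3.28). KRTAP2-3 and LCE1F, hair and skin cornified envelope genes with close copies, rose by 2.71 to 6.28 and by 1.82 to 2.68. Some of the group varied little with the compound, among them the immunophilin FKBP1A (0.76 to 0.81), SYP and CXCL14 (1.31 to 1.98). The imprinted gene PEG10, in contrast, ranged from 0.83 in panobinostat to 5.42 in romidepsin. Untreated wells were themselves called higher than DMSO for SERPINB2 in U87PS1 (0.68) and for PEG10 in U87PS4 (0.94). The 42 genes were picked on the same inhibitor wells, so their standing against the other compounds is a description. Against the other compounds of each set, 37 of the 42 were also called higher in both sets, beside 11.3% and 4.36% of all genes. The 5 that were not were FTH1, COMMD6, LCE1F, PEG10 and QSOX1, of which FTH1, the ferritin heavy chain, stood at 0.09 and 0.51 against other compounds.

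The 13 genes lower in all 6 compounds were ARPC1B, CCNB1, CDC20, HNRNPM, PLP2, PRC1, PRKCDBP, SAPCD2, SLC10A3, SUMO3, TGFB1I1, TUBA1B and TUBG1. CDC20, an activator of the anaphase-promoting complex, fell by 1.18 to 2.26, and PRC1, a spindle midzone protein, by 1.03 to 3.80. TUBA1B, a major alpha-tubulin, fell by 0.63 to 1.99, and TUBG1, the gamma-tubulin of spindle poles, by 0.79 to 1.27. These 13 were likewise picked on the same inhibitor wells. Of the 13 genes, 9 were also lower against the other compounds in both sets, the exceptions being CDC20, HNRNPM, TUBA1B and TUBG1. Over all genes 20.5% were lower in that comparison in U87PS1 and 4.14% in U87PS4. For TUBG1 the values against other compounds were -0.32 in U87PS1 and 0.13 in U87PS4, and the untreated wells of U87PS4 were themselves lower than DMSO by 0.75 (adjusted p = 0.0074, edgeR).

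Genes of proliferation, a list of cyclins, mitotic and replication genes, were mostly lower in both sets. Over all genes tested the mean of the compounds called 8.76% higher and 14.8% lower in U87PS1, and 7.44% higher and 7.66% lower in U87PS4, which is the background for each list. In U87PS1 35 of 43 tested genes were lower and none higher in the mean of the compounds, with a median log2 fold change of -1.39 beside -0.09 over all genes tested. In U87PS4 29 of 43 were lower and 1 higher, with a median of -0.90 beside -0.04. The 1 higher gene was HMGB2, a chromatin protein, at 1.59 in the mean of U87PS4, with 2.70 in pracinostat and 0.48 in resminostat, where it was not called. By compound, romidepsin lowered 33 of the 43 genes, belinostat 30, resminostat 25, pracinostat 13, vorinostat 10 and panobinostat 7, and none was called in the untreated wells of either set. MKI67, the proliferation antigen Ki-67, fell by 1.43 ± 0.21 and 1.47 ± 0.23. TOP2A, topoisomerase II alpha, fell by 1.50 ± 0.16 and 0.76 ± 0.15, and CDK1, the mitotic kinase, by 1.67 ± 0.19 and 0.97 ± 0.18. Against the other compounds 33 of 43 were lower in U87PS1 (20.5% of all genes) and 14 of 43 in U87PS4 (4.14% of all genes), and TOP2A in U87PS4 was among those not past the threshold there (-0.64 ± 0.29, adjusted p = 0.17, edgeR).

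TOP2A, CCNB1, CDC20, TPX2, UBE2C and TK1 were lower in every inhibitor of U87PS1. UBE2C, the ubiquitin-conjugating enzyme of mitosis, held 85.9 and 95.9 CPM in belinostat wells and 90.7 and 102 in romidepsin wells. Panobinostat wells held 224 and 212 CPM and vorinostat wells 308 and 340 CPM, against 444 to 612 CPM in DMSO. The inhibitor wells were all below the DMSO wells, with belinostat and romidepsin the lowest. Of the cell cycle inhibitor genes 2 were higher and 3 lower of 15 tested in U87PS1, near the 8.76% and 14.8% over all genes, and 0 higher and 2 lower of 12 in U87PS4 (7.44% and 7.66%). CDKN1A, which encodes the p21 protein, rose in romidepsin by 1.07 ± 0.17 (adjusted p = 2.1e-07, edgeR) and lay between -0.15 and -0.01 in the other inhibitors of U87PS1, none called. It stood at 0.19 ± 0.12 in the mean of U87PS1 (adjusted p = 0.27, edgeR) and at -0.11 ± 0.11 in U87PS4 (adjusted p = 0.6, edgeR).

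**Figure D4:**
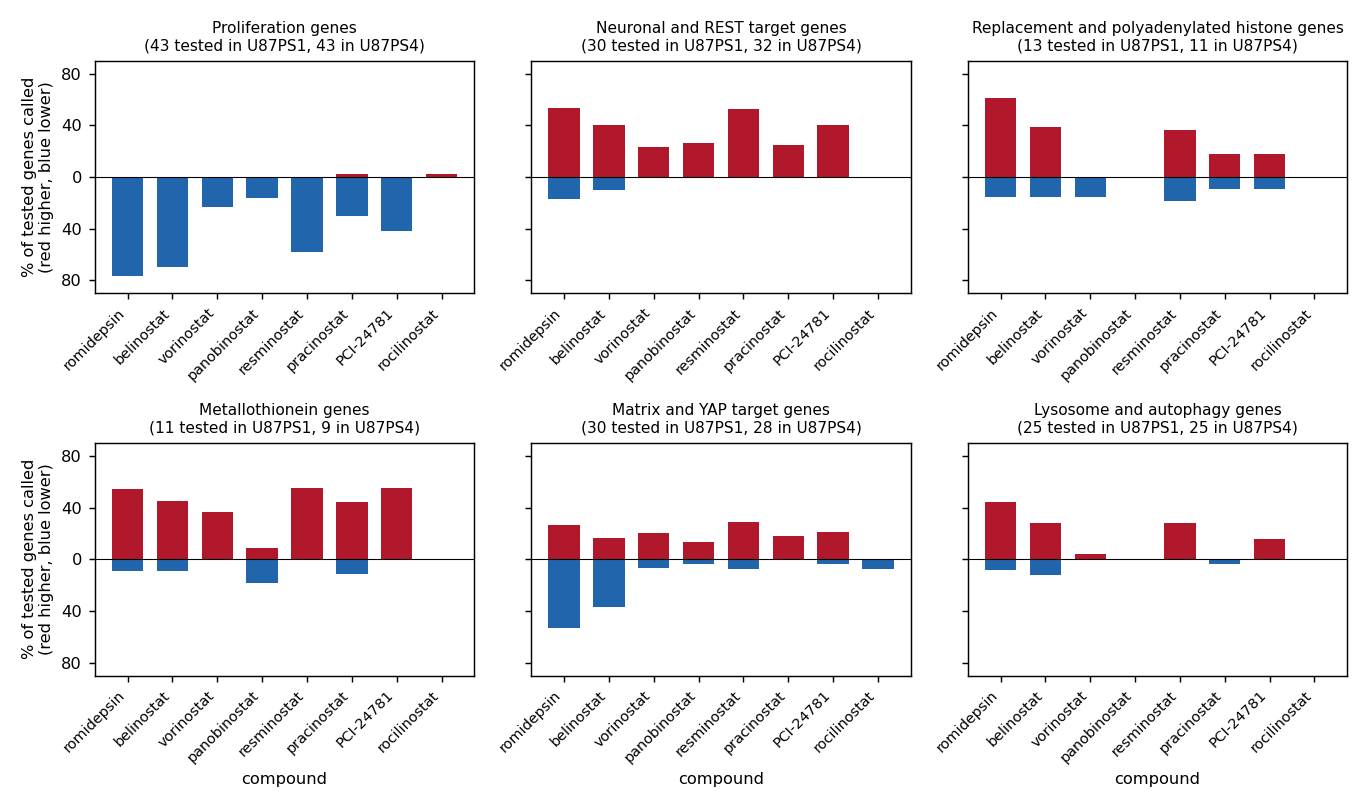
Share of the tested genes of 6 lists (panels) called higher (positive) and lower (negative) than DMSO, in percent, for each HDAC inhibitor and for PCI-24781 and rocilinostat. Proliferation genes are called lower in every member, from 7 of 43 genes in panobinostat to 33 of 43 in romidepsin, and neuronal and REST target genes have more higher than lower calls in each of the 6 inhibitors.

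Neuronal and REST target genes held members that rose in every inhibitor beside others that did not pass. Of 46 listed, 30 were tested in U87PS1, with 14 higher and 4 lower (median 0.94, beside 8.76% higher, 14.8% lower and a median of -0.09 over all genes). In U87PS4 32 were tested, with 16 higher and 0 lower (median 1.00, beside 7.44%, 7.66% and -0.04). Members with next to no reads in DMSO, such as CHGA, MAPT and STMN2, passed the filter on low counts through wells other than DMSO, which raises the share called higher, so these counts are a description. Setting the 1 gene in each set with no reads in DMSO (CHGA and MAPT) to its lower bound left the medians at 0.94 and 1.00. A median moves only if that gene crosses it, so this does not show what the filter added. Of 29 genes tested in both sets, 11 were higher in both. VGF, a neuropeptide precursor, held 2196 and 1914 CPM in romidepsin wells and 813 and 711 in belinostat wells. Panobinostat wells held 146 and 67.8 CPM of VGF and vorinostat wells 75.2 and 83.4 CPM, against 27.1 to 45 CPM in DMSO. All 8 wells were above DMSO, and VGF rose by 3.28 ± 0.18 in U87PS1 (adjusted p = 2.5e-26, edgeR), by 1.20 ± 0.35 in U87PS4 (adjusted p = 0.026, edgeR) and by 0.98 ± 0.43 in pracinostat, which alone did not pass (adjusted p = 0.22, edgeR).

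The neuronal genes did not follow a single order of compounds. MAP2, a dendritic microtubule protein, rose by 2.81 and 3.10 in romidepsin and belinostat, by 1.86 and 1.57 in panobinostat and vorinostat, and by 2.90 and 3.21 in pracinostat and resminostat. GAP43, a growth cone protein, held 64.5 and 76.3 CPM in panobinostat wells, 75.2 and 63.1 in vorinostat wells and 40.1 and 65.4 in belinostat wells, but 19.7 and 24.2 CPM in romidepsin wells, against 14.2 to 24.1 CPM in DMSO. Romidepsin was thus at the level of DMSO for GAP43 (0.24 on the log2 scale, not called) where the hydroxamic acids were called at 1.53, 1.87 and 1.84. BEX1 followed the same order, with 0.42 in romidepsin, not called, and 0.66 to 1.30 in the other compounds of U87PS1. TUBB3, a neuronal beta-tubulin, went the other way, at 3.45 in romidepsin, 1.50 in belinostat and within 0.20 of 0 in vorinostat, panobinostat, resminostat and pracinostat. REST itself was lower in the mean of U87PS1 (-0.87 ± 0.23, adjusted p = 0.0022, edgeR) and at -0.14 ± 0.25 in U87PS4 (adjusted p = 0.78, edgeR).

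Among the histone genes measured by oligo(dT) priming, 4 of 13 tested were higher and 2 lower in U87PS1, and 3 of 11 higher and 2 lower in U87PS4. Over all genes 8.76% were higher and 14.8% lower in U87PS1 and 7.44% and 7.66% in U87PS4, so that the 2 lower of 13 lay at the background. The linker histone gene HIST1H1C held 1187 and 851 CPM in romidepsin wells and 343 and 249 in belinostat wells. Panobinostat wells held 87.3 and 84.8 CPM and vorinostat wells 92.1 and 66, against 44.4 to 73.3 CPM in DMSO. HIST1H1C was called in romidepsin and belinostat, and, at 0.59 and 0.44, not in panobinostat or vorinostat. In U87PS4 it was called in both resminostat (1.96) and pracinostat (1.33). HIST2H2BE rose to 509 and 433 CPM in romidepsin wells and 137 and 82.9 CPM in belinostat wells, against 8.71 to 21.3 CPM in DMSO, 16.9 and 5.82 CPM in vorinostat wells and 13.3 and 8.48 CPM in panobinostat wells. H2AFZ, a variant histone of promoters, fell by 1.29 ± 0.12 in U87PS1. In U87PS4 it fell by 1.06 ± 0.20 in pracinostat (adjusted p = 0.00038, edgeR) but stood at 0.41 ± 0.17 in resminostat (adjusted p = 0.12, edgeR), and their mean of -0.33 ± 0.15 did not pass (adjusted p = 0.14, edgeR).

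Among the genes of the targeted enzymes, 2 were called in each set, beside 23.5% of all genes in U87PS1 and 15.1% in U87PS4. Of the 11 HDAC genes 8 were tested in U87PS1, where HDAC3 was higher (1.30 ± 0.25, adjusted p = 2.3e-05, edgeR) and HDAC7 lower (-1.97 ± 0.40, adjusted p = 9e-05, edgeR). Of 7 tested in U87PS4 HDAC7 (-1.18 ± 0.31) and HDAC10 (-0.82 ± 0.24) were lower. HDAC7, a class IIa enzyme, held 0 and 4.83 CPM in romidepsin wells and 0 and 8.72 CPM in belinostat wells, against 25.1 to 61.8 CPM in DMSO. Of the HDAC corepressor complex genes 2 of 26 were higher and 7 lower in U87PS1, and 1 higher and 1 lower in U87PS4. The share higher was near the 8.76% over all genes in U87PS1, where 14.8% were lower, and the shares in U87PS4 were below the 7.44% and 7.66% over all genes. MTA1, a subunit of the NuRD complex, was the one lower in both (-0.77 ± 0.24 and -1.83 ± 0.48). Of acetyltransferase and acetyl-lysine reader genes 0 of 13 were higher and 2 lower in U87PS1, and 1 of 15 higher and 2 lower in U87PS4.

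MT1G, a metallothionein, held 11858 and 5465 CPM in romidepsin wells and 7803 and 3746 CPM in belinostat wells. Vorinostat wells held 699 and 373 CPM and panobinostat wells 681 and 300, against 293 and 246 CPM in the DMSO wells of plate A and 95 and 84.3 CPM in those of plate B. On each plate every inhibitor well was above both DMSO wells, and MT1G rose by 3.50 ± 0.15 (adjusted p = 4.8e-19, edgeR) and in U87PS4 by 2.81 ± 0.22 (adjusted p = 2.1e-08, edgeR). Of the metallothionein genes 5 of 11 were higher and 1 lower in U87PS1, and 5 of 9 higher and 1 lower in U87PS4, beside 8.76% and 14.8%, and 7.44% and 7.66%, of all genes. Against the other compounds 5 of 11 were higher and 2 lower in U87PS1 (11.3% and 20.5% of all genes), and 3 of 9 higher and 0 lower in U87PS4 (4.36% and 4.14%). The DMSO wells were themselves low for MT2A, with 1.92% to 5.84% of counts where the plate medians were 5.03% to 11.3%. MT2A rose against DMSO by 0.46 ± 0.13 and 1.87 ± 0.25, but against the other compounds it stood at -0.46 ± 0.24 (adjusted p = 0.13, edgeR) and 0.24 ± 0.39 (adjusted p = 0.76, edgeR). MT1G stayed higher against the other compounds, by 3.12 ± 0.14 and 2.25 ± 0.33. The MT1 genes are near-identical copies, so reads may be split among them.

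Of matrix and YAP target genes 6 of 30 were higher and 11 lower in U87PS1 (8.76% and 14.8% of all genes), and 6 of 28 higher and 4 lower in U87PS4 (7.44% and 7.66%). TIMP1, an inhibitor of matrix metalloproteinases, was among the most abundant genes that rose in all 6 compounds, with 8856 to 18660 CPM in the inhibitor wells of U87PS1 against 5501 to 8009 in DMSO and 9677 to 10539 against 3215 to 4421 in U87PS4. FN1, fibronectin, rose in all 6 by 0.68 to 1.94. CTGF, a matricellular growth factor, rose by 2.89 ± 0.29 and 2.46 ± 0.30. PLAU, urokinase, fell by 3.34 ± 0.25 in U87PS1, to 7.88 and 14.5 CPM in romidepsin wells against 449 to 766 CPM in DMSO, and was at -0.84 ± 0.34 in U87PS4 (adjusted p = 0.13, edgeR). COL1A1, type I collagen, fell by 2.32 in romidepsin and 2.11 in belinostat and by 0.54 in vorinostat, and stood at -0.26 in panobinostat.

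The next lists stand beside 8.76% higher and 14.8% lower over all genes in U87PS1 and 7.44% and 7.66% in U87PS4. Of tubulin and actin regulator genes, 4 of 24 were higher and 8 lower in U87PS1, and 6 of 25 higher and 8 lower in U87PS4. TUBA1B, TUBB6 and TUBG1 were lower in every inhibitor of U87PS1, whereas TUBB4A and TUBA1A rose in the means of both sets, the latter by 1.05 and 1.02. Of lysosome and autophagy genes 7 of 25 were higher and 2 lower in U87PS1, and 6 of 25 higher and 1 lower in U87PS4. PSAP, the precursor of saposins, rose by 1.02 ± 0.12 and 0.51 ± 0.14, and the cathepsin gene CTSB by 0.79 ± 0.11 and 0.55 ± 0.12. Of p53 target genes 1 of 19 was higher and 5 lower in U87PS1, and 0 of 17 higher and 3 lower in U87PS4. Stress response genes were higher in 7 and lower in 3 of 24 in U87PS1, and higher in 3 and lower in 3 of 24 in U87PS4. HSPA5, the chaperone of the endoplasmic reticulum, rose in both (0.97 ± 0.19 and 0.76 ± 0.16), and the cytosolic chaperone HSPA8 fell in both (-0.41 ± 0.10 and -0.72 ± 0.11). Of glutathione and thioredoxin genes 5 of 24 were higher and 4 lower in U87PS1, and 5 of 25 higher and 2 lower in U87PS4, with TXNRD1, thioredoxin reductase, higher in both (0.94 ± 0.22 and 0.97 ± 0.22). Of cholesterol and fatty acid synthesis genes 3 of 24 and 2 of 25 were higher and 3 and 1 lower, and of HLA and antigen presentation genes 1 of 15 and 1 of 16 were higher and 3 and 1 lower, counts near the background.

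Romidepsin and belinostat raised some genes to levels far above those of the other compounds of U87PS1. S100A9, a calgranulin of myeloid cells and inflamed epithelia, held 801 and 907 CPM in belinostat wells and 721 and 457 in romidepsin wells, against 7.76 to 15 CPM in vorinostat and panobinostat wells and 0 to 1.48 CPM in DMSO, which is 1 count in all. It was called in all 4 compounds. In U87PS4 resminostat wells held 91.4 and 45 CPM of S100A9, and pracinostat, at 15.1 and 2.67 CPM, did not pass (adjusted p = 0.35, edgeR). Its partner S100A8 had no reads in the DMSO wells of U87PS1 and was at least 91.6-fold higher in belinostat and at least 53.3-fold higher in romidepsin, taking 3 counts over the DMSO wells as the floor. Summed blood and endothelial markers lay between 38.7 and 99.9 CPM in the inhibitor wells of U87PS1 and between 42.6 and 88.7 CPM in DMSO, and 5 of the 11 markers had no reads in any inhibitor well.

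Other changes were largest in 1 compound or in a pair. MIR7-3HG, the host transcript of a microRNA, held 315 and 239 CPM in romidepsin wells and no more than 1.21 CPM in any other inhibitor well, and with no reads in DMSO it was at least 199-fold higher. FAM20C, a secretory pathway kinase, and RAB27A, a GTPase of secretory vesicles, had no reads in romidepsin wells and were at least 19.4-fold and 16.2-fold lower, while panobinostat and vorinostat lay at 43.7 to 115 CPM for FAM20C and 68.3 to 80.5 CPM for RAB27A, within or close to their DMSO ranges. Belinostat lay between, at 0 and 13.1 CPM for FAM20C and 17.2 and 34.9 CPM for RAB27A, and was called for both. CCNB2, cyclin B2, had no reads in belinostat wells and was at least 8.97-fold lower there. It was also called lower in romidepsin (-2.68), resminostat (-2.18) and pracinostat (-1.01), but not in panobinostat or vorinostat. The polyamine enzyme gene ODC1 rose by 4.42 in romidepsin and 2.58 in belinostat and was not called in panobinostat (-0.29) or vorinostat (-0.06). ODC1 was also called higher in resminostat (1.28), but not in pracinostat (0.04). In U87PS4 FAM107A, an actin-associated gene, held 60.6 and 64 CPM in pracinostat wells and 9.34 and 49.9 in resminostat wells, against 0 to 4.97 CPM in DMSO. ODF2, a centrosomal gene, fell by 2.58 ± 0.50 in pracinostat and by 1.63 ± 0.40 in resminostat, and in U87PS1 it stood at -0.36 ± 0.32 (adjusted p = 0.45, edgeR).

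IL1B, CSF3 and IL7R were among the 16 genes called in opposite directions in the sets, while other genes of inflammation, such as CCL20, SAA2 and C3, were higher in both. IL1B, interleukin 1 beta, held 647 and 619 CPM in romidepsin wells and 1861 and 1849 in belinostat wells. Panobinostat wells held 4104 and 4758 CPM and vorinostat wells 3619 and 4937, against 2700 to 3398 CPM in DMSO. Thus IL1B fell by 2.27 in romidepsin and by 0.69 in belinostat but rose by 0.50 in panobinostat (adjusted p = 0.0076, edgeR) and by 0.46 in vorinostat (adjusted p = 0.0097, edgeR), within the same plates. In U87PS4 it rose by 1.08 in pracinostat and 1.35 in resminostat. The untreated wells of U87PS4 were themselves called higher than DMSO for IL1B, by 0.45 ± 0.10 (adjusted p = 0.018, edgeR), and against the other compounds the inhibitors stood at 1.03 ± 0.29 (adjusted p = 0.011, edgeR). The colony-stimulating factor gene CSF3 fell by 2.85 in romidepsin and 1.25 in belinostat, rose by 0.45 in panobinostat (adjusted p = 0.041, edgeR) and rose by 0.94 and 0.95 in pracinostat and resminostat. In vorinostat it stood at 0.31, which did not pass, and in U87PS4 the inhibitors stood at 0.69 ± 0.36 against the other compounds (adjusted p = 0.24, edgeR). The interleukin 7 receptor gene IL7R had no reads in romidepsin wells and 0 and 4.36 CPM in belinostat wells, against 14.2 to 34.7 CPM in DMSO and 42.4 to 45.6 CPM in panobinostat wells. In U87PS4 IL7R held 32 to 35.3 CPM in the inhibitor wells against 8.3 to 21.5 CPM in DMSO, and it passed in the mean (1.17 ± 0.36, adjusted p = 0.021, edgeR) but in neither compound singly. The untreated wells stood at a similar 1.06 ± 0.35 (adjusted p = 0.17, edgeR), and the inhibitors at 0.82 ± 0.36 against the other compounds (adjusted p = 0.15, edgeR).

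PCI-24781 and rocilinostat, the HDAC inhibitors whose labels did not match the list of names, differed in extent. PCI-24781 called 392 genes higher (4.55%) and 239 lower (2.77%) than DMSO, 7.33% in all. Rocilinostat, known to act preferentially on HDAC6, called 82 higher (0.952%) and 31 lower (0.36%), 1.31% in all, beside 0.975% for the untreated wells. Of the 42 genes higher in all 6 members, PCI-24781 called 39 higher and rocilinostat 6, and of the 13 lower genes they called 12 and 2. These compounds share DMSO wells with resminostat and pracinostat. DHRS2 held 104 and 59.5 CPM in PCI-24781 wells and 7.28 and 0 CPM in rocilinostat wells, the latter within the DMSO range. FXYD7 was the only one of these 19 named genes called in rocilinostat, at 1.31 ± 0.30 (adjusted p = 0.016, edgeR) with 32.8 and 68.6 CPM, beside 3.90 ± 0.24 in PCI-24781. TIMP1 stood at 1.43 in PCI-24781 and at -0.03 in rocilinostat (adjusted p = 0.96, edgeR). Of the 43 proliferation genes, 18 were lower in PCI-24781 and 0 in rocilinostat. Doses differed, and no test compared the compounds with each other.

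Duplicate wells gave a measure of how repeatable each compound was, as the correlation of plate A with plate B over 5242 genes, each well taken relative to the median of the other compounds on its plate. Romidepsin was at rank 1 of 92 compounds in U87PS1 (Pearson 0.718), vorinostat at rank 5 (0.527), belinostat at rank 7 (0.520) and panobinostat at rank 14 (0.432), where the other compounds had a median of 0.244. In U87PS4 resminostat was at rank 2 (0.664) and pracinostat at rank 23 (0.415), where the median of others was 0.300. These correlations run over genes and both wells share a plate position. Across sets, which share no wells, the 4 compounds of U87PS1 most like pracinostat out of 92 were panobinostat (0.423), belinostat (0.380), vorinostat (0.352) and romidepsin (0.295). The same 4 were most like resminostat, as belinostat (0.508), vorinostat (0.492), panobinostat (0.471) and romidepsin (0.414). In the other direction resminostat was first for belinostat, panobinostat and vorinostat, whereas for romidepsin OTX015, a bromodomain inhibitor, was first (0.433) and resminostat second. Rocilinostat was most like axitinib (0.283), and panobinostat came at rank 3 (0.189).

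Taking the other compounds in place of DMSO as the reference gave 1131 genes higher (11.3%) and 2053 lower (20.5%) of 10032 tested in U87PS1, 31.7% in all, and 470 higher (4.36%) and 446 lower (4.14%) of 10777 in U87PS4, 8.5% in all. All other compound wells of a set formed 1 group in this fit, and the pairing of a compound's duplicate wells was not modelled. In this comparison the median over all genes was -0.15 in U87PS1. With another scaling (relative log expression) it was -0.07 and the split 1417 higher and 1624 lower. DHRS2 (4.08 ± 0.20 and 3.36 ± 0.35), FXYD7 (3.47 ± 0.16 and 3.40 ± 0.21) and VGF (3.25 ± 0.13 and 1.55 ± 0.24) were called higher in both sets. CCNB1 (-1.80 ± 0.26 and -1.43 ± 0.33) and PHF19 (-1.92 ± 0.22 and -1.83 ± 0.34) were called lower in both.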

How the data were processed

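PLATE-Seq counts of U87 wells were used. The authors aligned reads with BWA to hg19 and deposited counts of uniquely mapped sense-strand reads per gene symbol, with no molecular identifiers, so PCR copies are included and all intervals cover counting error only. The 92 spike-in rows were left out, leaving 23710 genes. Groups came from the drug label of each well. Each set was fitted with edgeR 4.0.16 in R 4.3.3 (TMM scaling, filterByExpr with a minimum count of 10, robust quasi-likelihood, condition and plate as terms), with Benjamini-Hochberg adjustment over all genes tested. In 28 genes with no reads in a compound the standard error of the U87PS1 mean exceeded 20 and is not given. Such a gene can miss the threshold in the mean though called in single compounds, as S100A8 did.

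Replicates 1 and 2 of a compound are its wells on plates A and B per the labels, whereas DMSO and untreated wells were numbered within their group, so plate, and not the number, was the replicate block of every fit. In data simulated without a plate effect, every member was given the same change. There, 92.2% of 4-fold and 49.5% of 2-fold changes were recovered in the U87PS1 mean among 7733 genes. In belinostat, the shallowest compound, 63.3% and 25.8% were recovered. Named genes were the 10 largest rises and falls called in both sets with at least 20 CPM, 2 per compound and direction with at least 50 CPM, and list members. The compounds, gene lists and tests were chosen with earlier results of these data known. Genes such as CDKN1A, HMGB2 or those called in opposite directions were named after their values were seen. Gene positions come from GRCh37 and promoters from RefSeq. Some genes and the tests of them are not reported here. Alternatives were DESeq2 1.42.0, other scaling and filters, no block, other references and single wells left out.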

Additional observations from a re-analysis of the deposited data

Results flagged for a closer look

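Of 38 sets of 4 DMSO wells, 4 held a well that stood apart from the other 3 (Dixon's criterion), where chance gives about 1 in 20. That chance does not apply to 3 of them, DLX4, SAA2 and CCL20, since with the other wells at 0 any read meets the criterion. The wells held 2.18 CPM of DLX4 and 6.54 CPM of SAA2 in U87PS1, where the other 3 were at 0, 2.18 CPM of CCL20 in U87PS4 and 15.2 CPM of CALB2 in U87PS4. CWC22, a spliceosome-associated gene, was at -0.71 on the log2 scale in the mean of the inhibitors of U87PS1 and at 1.12 in that of U87PS4, with every inhibitor well below the DMSO mean of its plate in the former and above it in the latter. That difference was not tested. The untreated wells of U87PS4 were as far above DMSO, at 1.10 ± 0.29 (adjusted p = 0.043, edgeR), and against the other compounds the inhibitors stood at 0.35 ± 0.30 (adjusted p = 0.52, edgeR).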

How the results depend on the processing

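Scaling, filters, DESeq2, untreated wells as the reference and a fit of members and DMSO wells alone each left the counts of called genes within 1.5 times of those reported. Without the plate as replicate block the counts were 793 for the U87PS1 mean, 729 for belinostat, 6 for panobinostat, 1362 for romidepsin, 5 for vorinostat, 241 for the U87PS4 mean, 32 for pracinostat, 193 for resminostat and 534 for U87PS4 against other compounds. Leaving out romidepsin, an alternative chosen after seeing the data, gave 1153 genes in the U87PS1 mean, and leaving out belinostat as well gave 513 (251 higher, 262 lower), where TUBB4A stood at 1.99 without passing. Leaving out single wells gave 1597 to 1896 for the U87PS1 mean, 977 to 1625 for belinostat, 64 to 195 for panobinostat, 1520 to 2517 for romidepsin, 100 to 406 for vorinostat, 908 to 1088 for the U87PS4 mean, 146 to 449 for pracinostat, 492 to 1110 for resminostat, and against other compounds 2502 to 2915 in U87PS1 and 437 to 501 in U87PS4. The lowest counts came from leaving out a well of the compound itself, which leaves 1 well assumed to vary like the others. These were the plate A wells of panobinostat (64) and resminostat (619) and pracinostat (298) and vorinostat (180) and belinostat (1010), and the plate B wells of panobinostat (89), vorinostat (100), pracinostat (146), resminostat (492), belinostat (977) and romidepsin (1520). Any of the 4 inhibitor wells of U87PS4 moved the count against other compounds, to 478, 501, 437 and 461. Over the named genes, 1351 values kept their direction and side of the threshold, 19 lost the call and 0 turned. Many of these genes were picked for being called in the same wells, so that stability is partly built in and does not describe other genes. Belinostat calls split 765 higher and 936 lower, but 796 and 660 with DESeq2. Wells of 184684 to 364834 counts limit genes of low level most.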

Other observations

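Of the 92 compounds of U87PS4, OTX015, a bromodomain inhibitor, was the most like romidepsin (0.433 over 5242 genes) and at rank 3 for belinostat (0.386). That comparison held no compounds of U87PS1, so it does not set OTX015 beside the other inhibitors of that set. Clusterin, CLU, a secreted chaperone, held 4644 and 4346 CPM in romidepsin wells, against 359 to 551 CPM in DMSO. It rose by 3.40 in romidepsin and 1.69 in belinostat, with 0.42 and 0.34 in panobinostat and vorinostat, neither called. CLU was also called higher in resminostat (1.11), pracinostat (0.83) and PCI-24781 (0.76). The actin-binding gene TPM1 divided the compounds as IL1B did, at -1.91 in romidepsin, -1.13 in belinostat, 0.94 in panobinostat, 1.19 in vorinostat, 1.08 in pracinostat and 0.77 in resminostat, all called.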
